A study of Mus musculus with 8 samples.

Results

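*Tbx2*, *Tbx3*, *Tbx4* and *Tbx5* encode T-box transcription factors and lie in the mouse genome as a pair of neighbours on each of 2 chromosomes, *Tbx3* beside *Tbx5* on chromosome 5 and *Tbx2* beside *Tbx4* on chromosome 11. SMCHD1 chromatin occupancy at these paralogous loci was examined in the regions listed by the authors, 2840 in all, each a known SMCHD1 peak with 5000 bp on each side. The members were all listed regions that overlap chr5:119600000-119950000 or chr11:85800000-85950000 (GRCm38), and 3 of the 2840 regions met this rule. All 3 lie on chromosome 5 at *Tbx3*. No listed region overlaps *Tbx5*, *Tbx2* or *Tbx4*, so the label of paired loci holds for the genes but the values come from *Tbx3* alone. The loci were selected on the merged values of both genotypes at *Tbx3*, where the difference was already known to be large, and the differences below are therefore a description without a test.

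SMCHD1 is a noncanonical SMC protein that takes part in gene silencing on the inactive X chromosome, at imprinted clusters and at gene clusters such as *Hox*. *MommeD43* is a missense mutation of *Smchd1*, made here by genome editing on the tagged allele. Anti-GFP ChIP-seq was performed in female C57BL/6J neural stem cells (NSCs) cultured from E14.5 embryos, in 3 lines of genotype Smchd1GFP+/+ (wild-type here) and 3 lines of genotype Smchd1GFPMommeD43/MommeD43 (*MommeD43* here). Both genotypes carry the GFP fusion at the endogenous *Smchd1* gene, and 1 whole cell extract library for each genotype was not analysed here. The values are 1 merged log2 library-size-normalized count for each genotype, so there is no spread between lines. By the study's methods the wild-type ChIP-seq data had appeared in an earlier publication and were analysed with the *MommeD43* data from the raw data. The same methods describe the ChIP for both genotypes together, in 3 independent lines each. The study's results also refer to control and *MommeD43* samples among the data it presents. Whether both were produced in the same experiment is not given in the sources used here, and effects of genotype and of a batch that differs between them cannot be told apart. The file holds no expression values, so the labelled cell type was not checked against markers.

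T-box factors bind DNA through a shared domain and act in development in dose-sensitive ways. The *Tbx2*-*Tbx4* and *Tbx3*-*Tbx5* pairs are thought to descend from an ancestral pair by duplication of a chromosome segment. *Tbx5* is required to form the forelimb and the heart, *Tbx4* acts in the hindlimb and lung, and *Tbx2* and *Tbx3* act mostly as repressors in the limb, mammary gland and cardiac conduction system. The arrangement is alike on both chromosomes, with all 4 genes on the plus strand. In GENCODE M21, *Tbx3* (ENSMUSG00000018604) spans chr5:119670669-119684724 and *Tbx5* (ENSMUSG00000018263) chr5:119832668-119885219, with 147.9 kb between them. *Tbx2* (ENSMUSG00000000093) spans chr11:85832551-85841948 and *Tbx4* (ENSMUSG00000000094) chr11:85886422-85916097, with 44.5 kb between them.

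The 3 regions are called T1, T2 and T3 in their order along chromosome 5. T1 (chr5:119665151-119676650) surrounds a peak of 1500 bp at chr5:119670151-119671650, which begins 518 bp before the start of *Tbx3* and ends 981 bp past it, within an exon. The same peak holds the first exon of 1 GENCODE transcript of *Tbx3os1*, a gene antisense to *Tbx3*, whose other transcripts start outside the peak. T2 (chr5:119682101-119692400) surrounds a peak of 300 bp at chr5:119687101-119687400, which begins 2377 bp past the end of *Tbx3* in an intron of *Tbx3os2*, a noncoding RNA gene on the minus strand. T3 (chr5:119686001-119696750) surrounds a peak of 750 bp at chr5:119691001-119691750, over the first exon and start of *Tbx3os2*. Hence the peaks of T1 and T3 cover transcript starts and that of T2 does not. The peaks cover 982 of the 6624 exonic bases of *Tbx3* and the regions cover 5677. T2 and T3 share 6400 bp and count the same reads there, whereas T1 shares none with either and lies 5450 bp before T2.

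The sequences of the T2 peak and the *Tbx3os2* promoter are shown because they give the base composition at listed peaks beside *Tbx3*. The T2 peak was read from GRCm38.p6 on the plus strand at chr5:119687101-119687400. The promoter is from RefSeq (GRCm38.p6), on the minus strand at chr5:119691169-119691468, from 250 bases before the start to 50 after it, and all 300 bases lie in the T3 peak. Capitals mark CpG dinucleotides, the letters CG, which read the same on both strands.
T2 peak: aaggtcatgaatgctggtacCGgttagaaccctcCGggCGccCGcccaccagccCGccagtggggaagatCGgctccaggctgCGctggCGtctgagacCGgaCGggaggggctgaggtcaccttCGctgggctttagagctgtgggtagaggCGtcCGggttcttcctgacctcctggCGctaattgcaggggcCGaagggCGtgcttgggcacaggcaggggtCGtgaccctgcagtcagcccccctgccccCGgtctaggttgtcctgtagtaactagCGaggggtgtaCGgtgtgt
Tbx3os2 promoter: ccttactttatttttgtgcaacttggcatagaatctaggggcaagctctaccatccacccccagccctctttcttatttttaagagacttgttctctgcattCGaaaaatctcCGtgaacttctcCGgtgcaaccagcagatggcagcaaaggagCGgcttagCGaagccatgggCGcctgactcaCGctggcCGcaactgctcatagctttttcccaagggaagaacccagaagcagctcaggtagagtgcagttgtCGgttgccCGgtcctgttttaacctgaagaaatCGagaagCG

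The T2 peak held 20 CpG and had a GC content of 65.3%, and 98.0% of the 1084 listed peaks of 300 bp held fewer CpG. The *Tbx3os2* promoter held 12 CpG, with a GC content of 50.7%, and 60.4% of the 32851 promoters of the table held fewer. A CpG was present in 75.1% of the 300 bp peaks and in 94.6% of the promoters. The T2 peak was thus rich in CpG for a peak on the list, and the promoter was near the middle of the promoters. On the same set the 2 were closer. Of the promoters, 73.5% held fewer CpG than the T2 peak, and of the 300 bp peaks, 95.1% held fewer than the *Tbx3os2* promoter. The letters GGTGTG, the core of the site that T-box factors bind, were searched on both strands. They occurred 1 time in the T2 peak and 0 times in the *Tbx3os2* promoter, beside 10.5% of the 300 bp peaks and 19.0% of the promoters that hold them. The table also has an entry for *Tbx3os1*, of which 192 of 300 bases lie in the T1 peak. It falls within the 5′ UTR of *Tbx3* and held 14 CpG, with a GC content of 57.3%. The entry for *Tbx4* (chr11:85896515-85896814, plus strand) held 8 CpG, with a GC content of 59.0%. It lies at the start of a transcript that begins inside the gene, at chr11:85896765, and not at the gene start, chr11:85886422. *Tbx2*, *Tbx3* and *Tbx5* have no entry.

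The base composition of the 3 members set them toward the GC-rich end of the list. The T1 peak had a GC content of 59.7% and an observed over expected CpG ratio of 0.869, and 96.7% of listed peaks had a lower ratio. The ratio was 0.634 in the T2 peak and 0.440 in the T3 peak, against a median of 0.223 over all peaks. A lower ratio was found in 86.3% of listed peaks for T2 and in 74.0% for T3, so T3 stood out least. Over the whole regions, GC content was 50.9% in T1, 49.5% in T2 and 49.2% in T3, each above the median region at 41.8%. A measure of repeats, the share of bases soft-masked in the assembly, was 13.8% in T1, 16.0% in T2 and 22.4% in T3, each below the median region at 24.4%.

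At *Tbx3*, SMCHD1 signal was near the middle of the list in wild-type NSCs and higher in *MommeD43* NSCs in all 3 regions. T1 had a merged value of 8.12 in the wild-type and 9.61 in the *MommeD43* cells. T2 had 8.10 and 9.18, and T3 had 7.88 and 8.82. In each region the *MommeD43* value was the higher. *MommeD43* minus wild-type was 1.49 in T1, 1.08 in T2 and 0.93 in T3 on the log2 scale, which is 2.81-fold, 2.11-fold and 1.91-fold. The median of the 3 differences was 1.08 and the median wild-type value 8.10.

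All 3 regions were over 0.5 higher in *MommeD43*, as were 1.23% of all regions. T1 and T2 were over 1 higher, as were 0.141% of all regions. Any difference above 0 in favour of *MommeD43* was present in 66% of all regions and in the 3 members. Since the members were chosen by this contrast, nothing is read from these shares. Over all regions 35 were over 0.5 higher and 13 over 0.5 lower, but with each difference taken relative to the median difference of 0.07 the split was 20 and 30. After a fit on signal level it was 29 and 15, and after a fit on GC content 22 and 16. The members passed 0.5 under all of these scalings, with T3 the smallest at 0.86, 0.85 and 0.79.

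**Figure D1:**
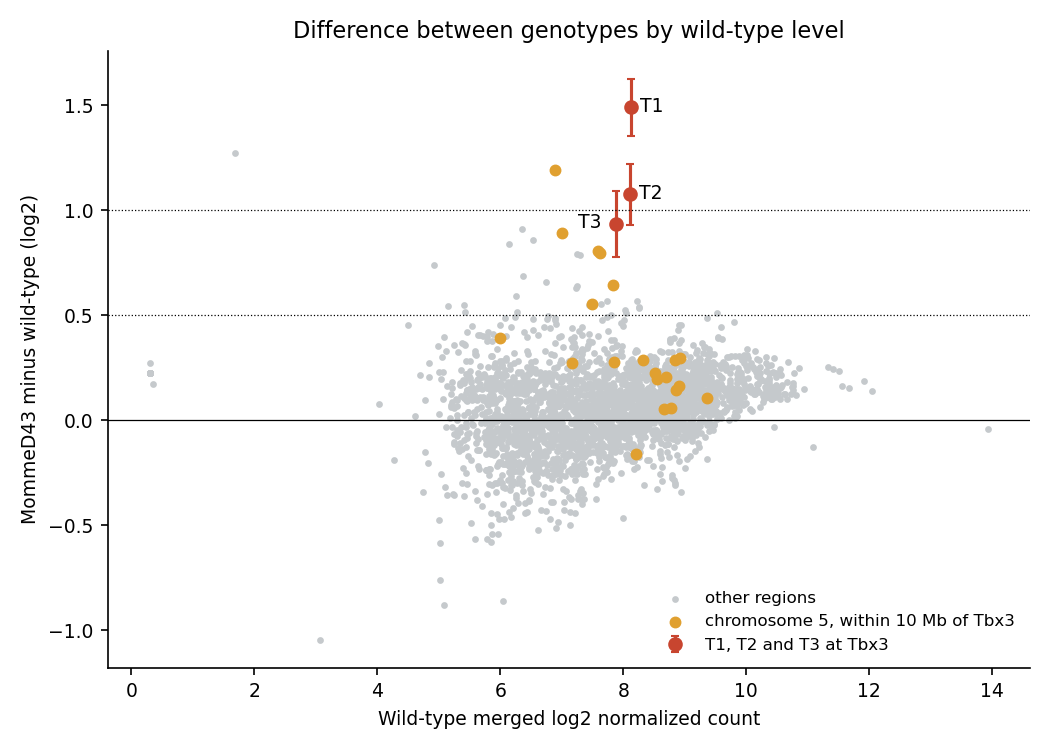
Each point is 1 of the 2840 regions, placed by its merged wild-type log2 normalized count (x axis) and by the log2 difference, *MommeD43* minus wild-type (y axis). T1, T2 and T3 (red, bars show the 95% interval for counting error) lie at 1.49, 1.08 and 0.93, with the 21 other regions within 10 Mb on chromosome 5 in yellow and dotted lines at 0.5 and 1.

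Depth set the precision of these values. From the lowest value of each column, T1 held an estimated 202 reads per wild-type library and 487 per *MommeD43* library (geometric mean of 3 libraries). T2 held 199.8 and 361 reads, and T3 held 172 and 281. The median region of the list held 158 and 142, so the members were somewhat deeper than most, the more so in *MommeD43*. The *MommeD43* libraries were 85.7% as deep as the wild-type libraries, which the normalization by library size takes into account. Counting error gave an SD of at least 0.07 for the difference in T1 and T2 and 0.08 in T3. The 95% interval for counting error ran from 1.35 to 1.63 in T1, from 0.93 to 1.22 in T2 and from 0.78 to 1.09 in T3. The interval of T1 lay above those of T2 and T3, which overlapped each other. These intervals cover counting alone. Differences among the lines and PCR duplicates would widen them.

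In rank, the members stood near the middle of the list by wild-type value and higher by *MommeD43* value. By wild-type value T1 stood at rank 1198, T2 at 1208 and T3 at 1340 of the 2840 regions, and by *MommeD43* value at 266, 509 and 775. T1 was higher than 57.8% of regions in the wild-type and than 90.6% in the *MommeD43* cells. Divided by length, the log2 values per kb were 4.60 and 6.09 in T1, 4.74 and 5.81 in T2 and 4.46 and 5.39 in T3. By this measure T2 and not T1 had the highest wild-type level of the 3, whereas T1 had the highest in *MommeD43* NSCs. By difference the members stood at ranks 1, 4 and 5 of the list, and at 1, 3 and 7 of 2824 after the fit on signal level.

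Regions with a similar level are given to describe the range of differences on the list. The members were chosen where the difference was known to be large, so nothing is read from the comparison. Of the 133 other regions within 0.1 of T1 in wild-type value, 89 were higher in *MommeD43* and 2 were over 0.5 higher, and their differences ran from -0.23 to 0.52 with a median of 0.07. For T3, the 124 regions within 0.1 in wild-type value ran from -0.28 to 0.64, and the highest of them, at *Wscd2*, also lies on chromosome 5. Among the 78 other regions within 0.1 of T1 in *MommeD43* value, the differences ran from 0.01 to 0.37. None of the regions compared here reached the difference of the member it was compared with. For T1, at rank 1 by difference, no region of the list could.

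T1 was nearest to the other members in its pair of per-kb log2 values, at a Euclidean distance over the 2 merged values of 0.31 from T2 and 0.71 from T3. Outside both loci, the 3 regions nearest to T1 comprised a pair of overlapping regions at *Tfap2c* on chromosome 2, which encodes an AP-2 transcription factor, and a region at *Tmem132e* on chromosome 11. The first *Tfap2c* region (chr2:172544801-172555400) had per-kb values of 4.85 in the wild-type and 5.38 in the *MommeD43* cells, at a distance of 0.75 from T1. The *Tmem132e* region (chr11:82382201-82393100) had 4.78 and 5.34, at a distance of 0.76. These regions had a wild-type level a little above that of T1 and a *MommeD43* level below it, with differences of 0.53 and 0.57. T1 stands at rank 1 by difference, so every other region had to have a smaller one. The members were chosen on these same values, so nothing is read from this pattern or from the distances.

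The comparison between the paralogous loci could not be made in values, because the chr11 window contained 0 regions, also with 50 kb more on each side. The nearest listed region to *Tbx4* lay 206.7 kb past its end and that to *Tbx2* 280.8 kb past its end, and it is the same region (chr11:86122751-86133200), inside *Brip1*, which encodes a DNA helicase. This region had a merged value of 7.59 in the wild-type and 7.54 in the *MommeD43* cells, a difference of -0.05 with a 95% interval for counting error from -0.26 to 0.15. On the other side of *Tbx2* the nearest region (chr11:83266901-83277800, at *Slfn14*) lay 2555 kb away and had 9.0 and 9.27. *Bcas3*, the protein-coding gene before *Tbx2*, had no region. On chromosome 5, *Tbx5* lay 135.9 kb past the end of T3 and 534 kb before the next listed region, and the protein-coding genes on either side of the pair, *Med13l* and *Rbm19*, had no region. A gene without a region is one at which no published peak was listed, and SMCHD1 levels there were not analysed here.

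**Figure D2:**
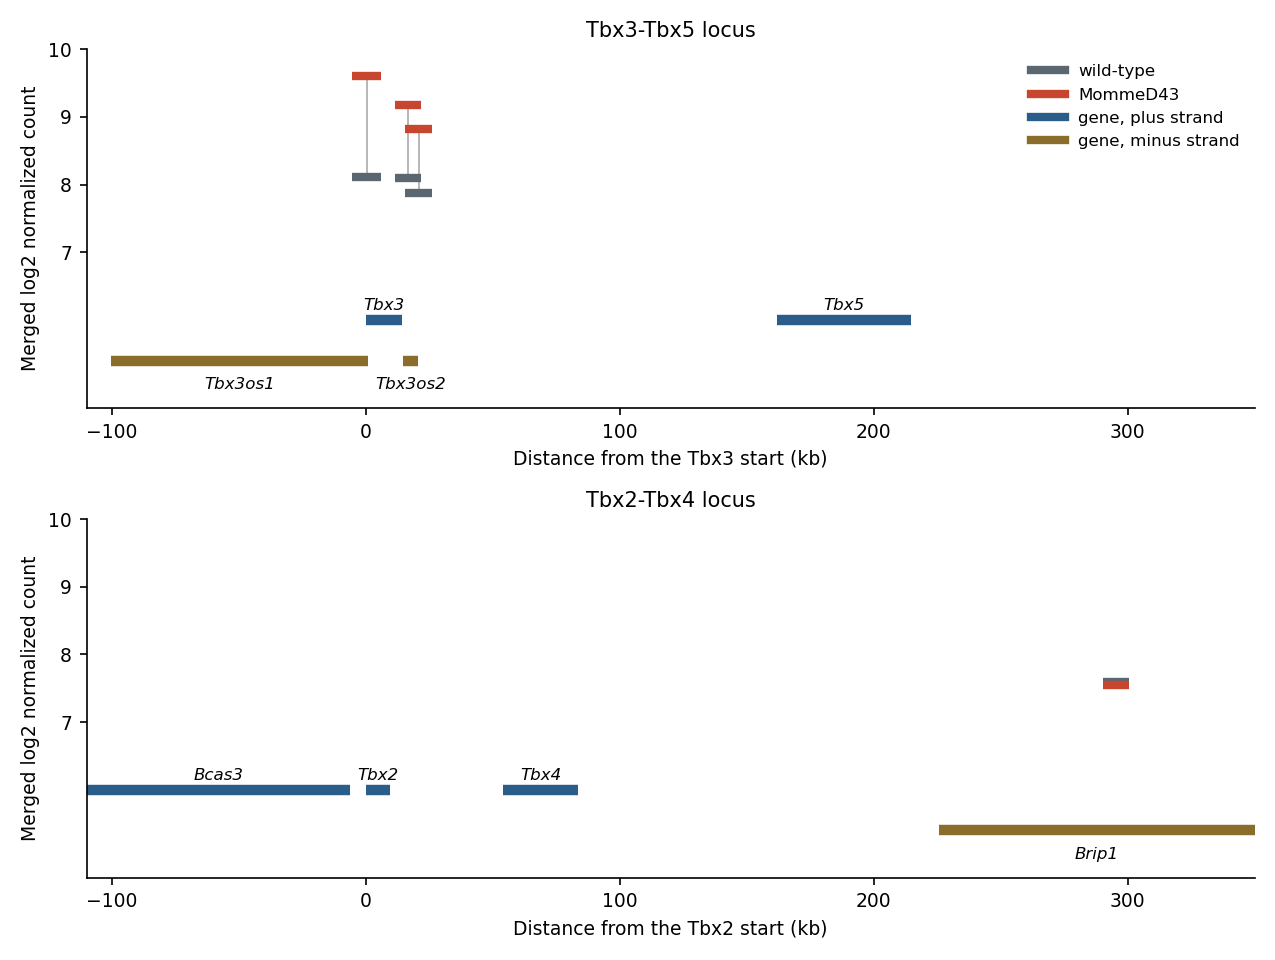
The Tbx3-Tbx5 locus (top) and the Tbx2-Tbx4 locus (bottom) are drawn to the same scale by distance from the *Tbx3* or *Tbx2* start in kb, with selected genes below and, for each listed region, a bar at its merged log2 normalized count in wild-type (grey) and *MommeD43* (red) NSCs. The 3 regions at *Tbx3* lie at 7.88 to 8.12 in wild-type and at 8.82 to 9.61 in *MommeD43* NSCs, there is none at *Tbx5*, *Tbx2* or *Tbx4*, and the bars of the *Brip1* region nearly coincide at 7.59 and 7.54.

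Regions around *Tbx3* on chromosome 5 were also mostly higher in *MommeD43*. Of the 21 other regions within 10 Mb of the *Tbx3* start, 20 were higher and 6 were over 0.5 higher, with a median difference of 0.28. The 21 regions fall in 17 groups of overlapping regions, and those at *Tmem132b*, among the 6, overlap and count shared reads. Relative to the median of all regions 18 of the 21 were higher, after the fit on signal level 17 and after that on GC content 18. Under these scalings, in the same order, the median was 0.20, 0.18 and 0.14, and 5, 6 and 4 were over 0.5 higher. The 177 other regions of chromosome 5 that lie farther away had a median difference of 0.12 and 5 over 0.5 higher, and the 2639 regions on other chromosomes had a median of 0.07 and 21 over 0.5 higher. Among single chromosomes, the 190 regions of chromosome 11 had a median of 0.134, with 77.9% higher and 2 over 0.5 higher. All 198 other regions of chromosome 5 had 0.128, 80.8% and 11. The nearest region before the members (chr5:118874951-118885400), in the stretch between *Med13l* and *Tbx3*, had 7.0 in the wild-type and 7.89 in the *MommeD43* cells. The nearest after them (chr5:120419051-120429650), 2049 bp from *Lhx5*, which encodes a LIM homeobox factor, had 8.32 and 8.60. These are the nearest listed regions outside the window, 785 kb before the *Tbx3* start and 534 kb past the *Tbx5* end. They had differences of 0.89 and 0.29, and the outer members T1 and T3 had 1.49 and 0.93. A region at *Tmem132c* (chr5:127236851-127247150), 7.57 Mb past the *Tbx3* start, had 6.88 and 8.08, a difference of 1.19 that lay between those of T1 and T2.

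Differences varied along this stretch, and the regions named here besides the nearest ones were picked after their values were seen. The regions at *Tmem132b* differed by 0.80, that at *Oas1c* by 0.56 and that at *Wscd2* by 0.64, while the region at *Atp2a2*, which encodes the calcium pump of the sarcoplasmic reticulum, had 8.21 and 8.04, a difference of -0.16. Relative to the median of the 21 regions, T1, T2 and T3 were higher by 1.21, 0.80 and 0.66. The part of the surrounding chromosome in the result at *Tbx3* was not tested. With merged values and no whole cell extract analysed, a difference in copy number of this stretch in some or all lines and a difference in SMCHD1 occupancy cannot be told apart. Within 10 Mb of the *Tbx2* start on chromosome 11, 15 of 22 regions were higher, 1 was over 0.5 higher and the median difference was 0.11. Relative to the median of all regions 13 were higher, with a median of 0.04, and after the fit on signal level or on GC content 12 were higher, with medians of 0.02 and 0.03, and 0 were over 0.5 higher under these scalings.

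**Figure D3:**
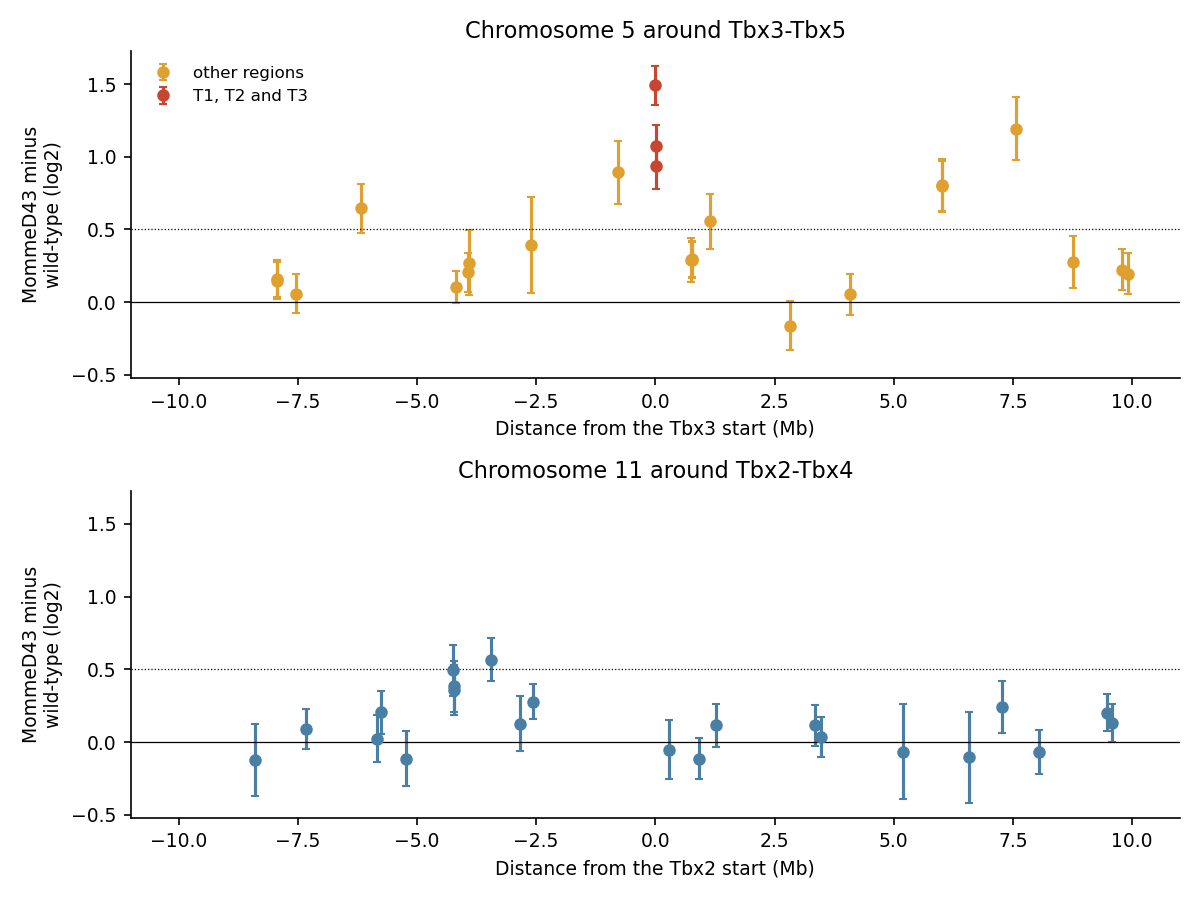
The log2 difference, *MommeD43* minus wild-type, is plotted by distance in Mb from the *Tbx3* start (top, chromosome 5) and from the *Tbx2* start (bottom, chromosome 11), and bars show the 95% interval for counting error. T1, T2 and T3 (red) lie at 1.49, 1.08 and 0.93 among chromosome 5 regions from -0.16 to 1.19, whereas the chromosome 11 regions run from -0.12 to 0.57.

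Of the 17 T-box genes on the family list, 4 were overlapped by a listed region, namely *Tbx3*, *Tbx15*, *Tbx18* and *Tbx20*, and 13 were not. *Tbx15*, a factor in skeletal and skin patterning, had 9.08 in the wild-type and 9.25 in the *MommeD43* cells. *Tbx18*, a factor of the sinus node and ureter, had 6 regions, from 8.79 to 9.29 in the wild-type and from 8.97 to 9.44 in the *MommeD43* cells. *Tbx20*, a cardiac factor, had 9.19 and 9.39. The 8 regions outside *Tbx3* fall in 3 groups of overlapping regions, and their differences ran from 0.15 to 0.22 with a median of 0.19. All 8 were higher in *MommeD43* as deposited, relative to the median of all regions and after either fit, the lowest by 0.01 after the fit on signal level. Their median fell to 0.12 relative to the median of all regions, 0.08 after the fit on signal level and 0.12 after that on GC content. Over all regions the share higher in *MommeD43* was 66% as deposited, 50% relative to the median, 49.3% after the fit on signal level and 50.5% after that on GC content. Per kb, the wild-type log2 level was 4.60 in T1 and 4.74 in T2, which overlap *Tbx3*, and from 5.33 to 5.91 in the 8 regions at the other T-box genes. *Tbx3* had the lower wild-type levels and the larger differences. The locus was chosen where the difference was known to be large, so nothing is read from this contrast.

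The limb and heart list holds genes that act with these T-box factors, upstream of them or downstream of them. Of its 25 genes, 8 were overlapped by a region and 17 were not. Among their 27 regions, in 8 groups, 21 were higher and 6 lower in *MommeD43*, 0 were over 0.5 apart and the median difference was 0.15, against 66% higher, 48 of 2840 over 0.5 apart and a median of 0.07 over all regions. After the fit on signal level 12 were higher and 15 lower, against 49.3% higher over all regions, so no direction is given for this list. *Fgf10*, a limb bud growth factor gene that *Tbx5* activates, had 6.38 and 6.53. *Pitx1*, a hindlimb factor upstream of *Tbx4*, had 9.02 and 8.99. The 4 regions at *Meis2*, a homeobox gene of the proximal limb, had the largest differences on the list, from 0.32 to 0.35.

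**Figure D4:**
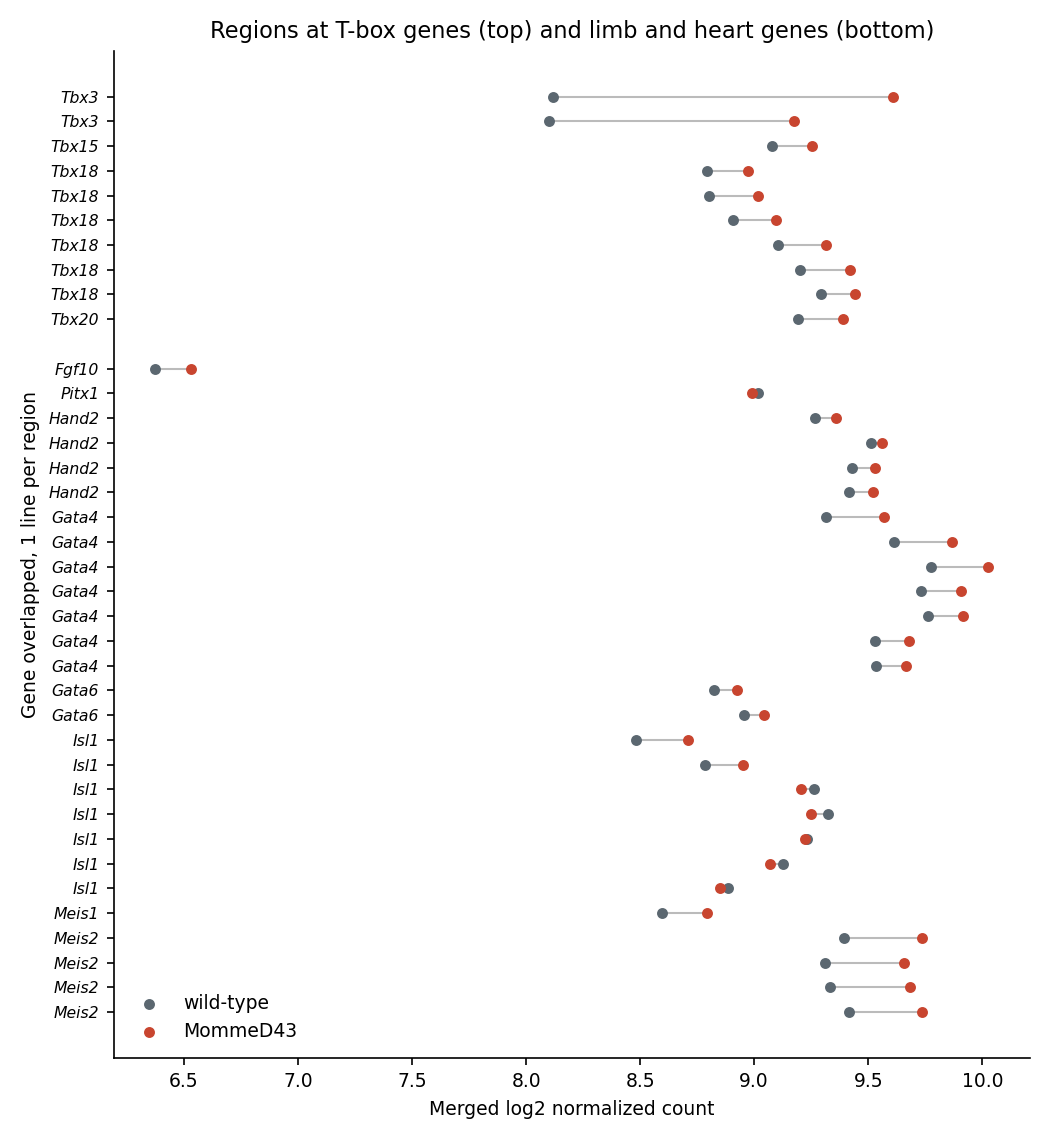
Each line is 1 listed region that overlaps a gene of the T-box family list (top) or of the limb and heart list (bottom), with its merged log2 normalized count in wild-type (grey) and *MommeD43* (red) NSCs. The lines of T1 and T2, which overlap *Tbx3*, are 1.49 and 1.08 long, and the others are at most 0.35 long.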

How the data were processed

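The data are anti-GFP ChIP-seq of NSC lines, 3 wild-type and 3 *MommeD43*, grouped by the sample labels. The authors trimmed reads with Trim Galore 0.4.4, mapped them to GRCm38.p6 with Bowtie2 2.3.4.1, counted them in SeqMonk and deposited 1 log2 value per genotype and region, normalized by library size and merged over 3 replicates. No test was possible. In 43 of 43 low values the product of the reads of 3 libraries was whole within 0.05, with 0 reads entered as 0.9. The lowest value of a column therefore gave its library factor and each value the geometric mean of reads, from which the counting SD was computed. Locally weighted fits (a share of 0.3 per local fit) used regions outside both loci with a wild-type value above 4, on the mean of both genotypes or on GC content. Genes came from GENCODE M21. The rule for named genes took the 4 T-box genes, genes at or beside the members, the lists and the 3 regions outside both loci most like T1. Other genes named, on chromosomes 5 and 11, fall outside it. They, the motif and regions of similar level were chosen after seeing the data. The members and lists were chosen with earlier results of these data known. Functions were tested on simulated data. Python 3.11.15, pandas 2.3.3, NumPy 2.4.6, statsmodels 0.14.6, pysam 0.24.0 and Matplotlib 3.10.9 were used.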

Additional observations from a re-analysis of the deposited data

How the results depend on the processing

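The members were chosen for a large difference, so nothing is read from a direction or count of members that holds under these alternatives. A window wider by 50 kb on each side held the same 3 regions. The median difference of 1.08 at *Tbx3* kept its direction under all 10 alternatives run. It was 1.28 over the regions that overlap the gene body and 1.25 with 1 value per group of overlapping regions, since each setting gives T1 more weight. It was 0.80 relative to the other regions within 10 Mb, a setting chosen after seeing the data. Under the other 7 it moved by less than its 95% interval for counting error and ran from 0.93, after a fit on GC content, to 1.20, with summed linear signal. The median wild-type value of 8.10 was 4.60 per kb, a change of unit. The count of 3 members over 0.5 apart did not change under its 2 alternatives, and that of 48 regions over 0.5 apart ran from 34, without chromosome 5, to 50, relative to the median of all regions.

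Of 25 alternatives listed at the outset 12 were run. Those for *Tbx2*-*Tbx4* and for the gap between the loci have no region to use, and leaving out a line needs single libraries. No paired analysis was possible because lines of a genotype were merged into 1 column. The sample labels give replicate numbers within each genotype, but the merged values do not keep them. A further 7 alternatives were chosen after seeing the data. Depth limits the differences at *Tbx3* to a counting SD of at least 0.07 to 0.08, and the spread between lines is unknown.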
